A study of Arabidopsis halleri with 24 samples.

Results

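WRKY6 and WRKY42 are plant transcription factors of the WRKY family, and both were measured by 1 probe set each on an expression array. They were chosen by name: a probe set was used when its only gene symbol in the array's probe table was WRKY6 or WRKY42. This gave probe set 264746_at for WRKY6 and 255337_at for WRKY42, that is 2 of the 13350 genes that the probe table names by a single symbol, and 2 of the 22746 probe sets that remained after control probe sets were left out. The pair was put forward with measured values of the same arrays in view, among them the signal of WRKY6 in leaves of the accumulating against the non-accumulating bulk and in roots against leaves. Those comparisons are therefore given as descriptions, with no test.

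WRKY factors bind a DNA element called the W box in the promoters of their targets. In Arabidopsis thaliana, WRKY6 and WRKY42 belong to the same subgroup of the family, group IIb, and both are known to bind the promoter of PHO1 and to repress it. PHO1 exports phosphate into the xylem of the root, and so sets how much phosphate reaches the shoot. WRKY42 is also known there as an activator of the phosphate uptake transporter gene PHT1;1, and WRKY6 has been linked to leaf senescence, to defence and to boron supply. PHO1 and PHT1;1 were not analysed here.

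Total RNA labelled with biotin, with Arabidopsis halleri as the recorded organism, was hybridised to 24 ATH1 arrays, which carry A. thaliana probes. The 8 groups of 3 arrays were high-zinc (25 µM zinc) and control roots of the accumulating bulk, high-zinc and control roots of the non-accumulating bulk, and rosette leaves of the same 4 kinds. Roots were whole root systems, and all plants had full mineral medium and 10 h of light in a growth room. The bulks are known to be pooled progeny from crossing the zinc hyperaccumulator A. halleri with A. petraea, which does not accumulate zinc, so each array stands for a pool and the bulks can differ at many loci. The labels used here do not state this cross. The labels name no plant age in days and no change in phosphate supply. They also do not say that replicates were grown separately, so a p-value here reflects only how far these arrays vary, which may be technical. In control roots of the non-accumulating bulk, replicate 1 has halleri as its source name, where the source name of the other 23 arrays is a bulk. It was kept in the group its title gives, and differences of WRKY6 and WRKY42 between groups that rest on it are also given without it.

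The organ labels fitted the markers. The summed signal of 5 leaf markers, genes of light harvesting and the Calvin cycle, was 109 to 299 in roots and 5497 to 20304 in leaves. The summed signal of 3 root markers, an endoplasmic reticulum body beta-glucosidase and a pair of root hair expansins, was 1410 to 2527 in roots and 79.4 to 162 in leaves. Arrays of the same group correlated at 0.935 to 0.961 in roots and 0.868 to 0.963 in leaves. Leaf arrays numbered 3 stood apart in the clock gene GI, whose signal there was 182 in the accumulating bulk and 217 in the non-accumulating bulk at high zinc, against 459 and 473 in the controls. In the other leaf arrays it was 250 to 515 at high zinc and 114 to 170 in controls. The rapid stress gene STZ set them apart too, at 95.6 to 377 on the leaf arrays numbered 3 and 720 to 4055 on the other leaf arrays. The cause was not tested. Leaf values are for these reasons also given without the arrays numbered 3. In the leaf arrays that remain, GI was higher on every high-zinc array than on every control. The part of this in the zinc differences was not tested.

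Both genes gave weak signals. The median of all values was a signal of 56.3 in roots and 53.3 in leaves. WRKY6 exceeded the median of its organ on 9 of 24 arrays, 2 of them root and 7 leaf arrays. WRKY42 did so on 5 of 24, of which 4 were root arrays and 1 a leaf array. A probe set was tested in an organ when the mean of at least 1 group lay above that median. WRKY42 reached this in roots only through the high-zinc roots of the non-accumulating bulk, and WRKY6 in leaves only through the accumulating bulk. WRKY6 in roots and WRKY42 in leaves did not reach it, and there the differences were estimated but not tested. No detection calls were used here, and a fold between low signals is uncertain. Sequence differences between the plants and the A. thaliana probes may lower a signal, and whether they differ between the bulks at these probes was not tested, so the levels of WRKY6 and WRKY42 are not set against each other.

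In roots, WRKY6 ranged from 9.24 to 76.2, with a median of 40.4. In roots of the accumulating bulk, the WRKY6 signals were 25.1, 38.3 and 44.1 at high zinc, against 42.4, 57.6 and 50.1 in controls. In roots of the non-accumulating bulk they were 32.7, 44.0 and 76.2 at high zinc, against 9.24, 31.8 and 35.6 in controls. The high-zinc and control arrays overlapped in both bulks, and the lowest value of all 24 arrays was that of the array with the source name halleri.

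In leaves, WRKY6 ranged from 26.0 to 94.5, with a median of 56.5. In leaves of the accumulating bulk, the WRKY6 signals were 87.4, 65.6 and 90.0 at high zinc, against 57.3, 94.5 and 49.5 in controls. In leaves of the non-accumulating bulk they were 63.0, 46.3 and 27.8 at high zinc, against 55.7, 26.0 and 26.9 in controls. The accumulating bulk held the higher signals, and all 3 of its high-zinc leaf arrays lay above all 3 of the non-accumulating bulk.

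In roots, WRKY42 ranged from 5.26 to 70.3, with a median of 34.9. In roots of the accumulating bulk, the WRKY42 signals were 21.8, 54.0 and 64.4 at high zinc, against 34.9, 21.2 and 34.9 in controls. In roots of the non-accumulating bulk they were 67.8, 70.3 and 58.1 at high zinc, against 10.0, 5.26 and 10.3 in controls. The non-accumulating bulk thus held both the highest and the lowest group mean of WRKY42 among the 4 groups of root arrays, and its high-zinc and control arrays lay far apart.

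In leaves, WRKY42 ranged from 5.77 to 86.7, with a median of 17.1. In leaves of the accumulating bulk, the WRKY42 signals were 9.85, 12.8 and 8.34 at high zinc, against 43.7, 86.7 and 18.8 in controls. In leaves of the non-accumulating bulk they were 15.5, 38.5 and 5.77 at high zinc, against 43.9, 8.13 and 30.7 in controls. The control leaves of both bulks were widely spread, and only in the accumulating bulk did all high-zinc arrays lie below all controls.

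**Figure D1:**
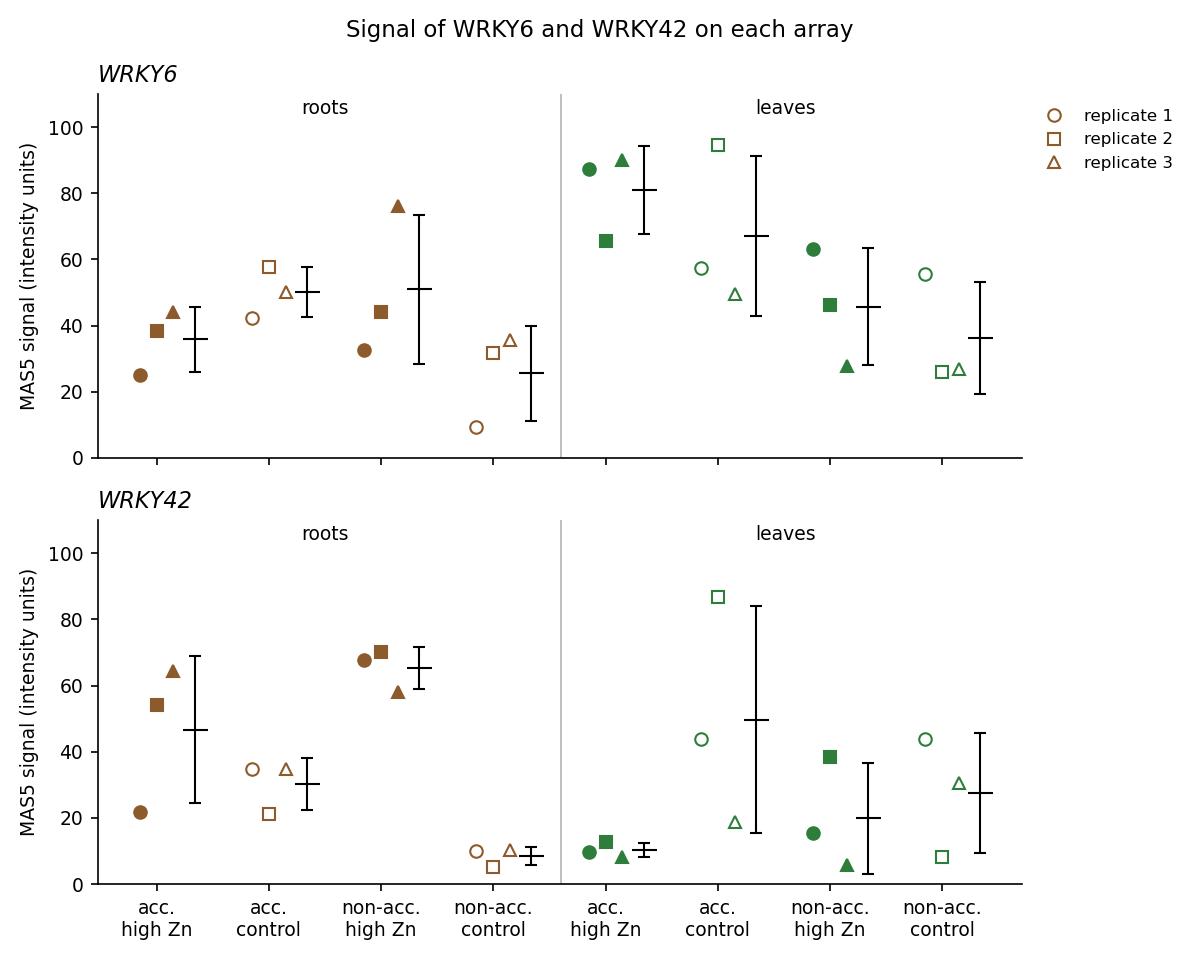
MAS5 signal (linear scale, set by the authors) of WRKY6 and WRKY42 on each of the 24 arrays, by group; filled points are high zinc and open points control, roots are brown and leaves green, circles, squares and triangles stand for replicates 1, 2 and 3, and bars show the mean ± SD of 3 arrays. WRKY42 lay between 58.1 and 70.3 in high-zinc roots of the non-accumulating bulk and between 5.26 and 10.3 in their controls, and WRKY6 was highest in leaves of the accumulating bulk.

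Ordered by the mean of log2(signal + 16), WRKY6 was highest in the high-zinc leaves of the accumulating bulk, at 6.59 ± 0.21 (SD, n = 3), and next in their controls, at 6.34 ± 0.40. Control roots of the accumulating bulk (6.04 ± 0.17), high-zinc roots (6.01 ± 0.47) and high-zinc leaves (5.91 ± 0.43) of the non-accumulating bulk followed. High-zinc roots of the accumulating bulk (5.68 ± 0.28), control leaves (5.66 ± 0.44) and control roots (5.31 ± 0.57) of the non-accumulating bulk were lowest. Each group overlapped the next one in this order, so no pair of neighbours differed beyond its spread.

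For WRKY42 the order began with the high-zinc roots of the non-accumulating bulk, at 6.34 ± 0.12 (SD, n = 3). Control leaves (5.90 ± 0.78), high-zinc roots (5.90 ± 0.58) and control roots (5.52 ± 0.26) of the accumulating bulk came next. Control leaves (5.35 ± 0.68) and high-zinc leaves (5.06 ± 0.67) of the non-accumulating bulk came before the high-zinc leaves of the accumulating bulk (4.71 ± 0.12). The control roots of the non-accumulating bulk closed the order at 4.61 ± 0.17. Neighbours overlapped here as well, although the first and last groups were root arrays of the same bulk that differed in zinc supply.

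The first comparison asks whether the transcripts responded to zinc in roots. WRKY42 averaged a signal of 65.4 ± 6.42 in high-zinc and 8.54 ± 2.84 in control roots of the non-accumulating bulk (SD, n = 3 each), a ratio of mean signals of 7.66. All 3 high-zinc arrays lay above all 3 controls, as was the case for 4.78% of the 22746 probe sets in that comparison. On the log2(signal + 16) scale, which understates folds at low signals, the difference was 1.73 (95% interval 1.10 to 2.37). It did not pass limma's test with Benjamini-Hochberg adjustment over the 12489 probe sets kept in roots, with an adjusted p of 0.209. WRKY42 was kept through the high-zinc group of this same comparison, so the p is conditional on that group being high; with no filter, over 22746 probe sets, it was 0.306. No probe set passed with the filter (percent called 0), and 1018 had an unadjusted p below 0.05. The difference was 2.84 with a pseudocount of 1 and 0.83 with 64, and the adjusted p stayed above the threshold in both (0.205 and 0.234). RNA came from whole organs, so a change in the number of cells that express a gene and a change in RNA per cell cannot be told apart. Leaving out the halleri array gave 1.78 (adjusted p = 0.681), and the smallest adjusted p with any 1 root array left out was 0.0786. The ranges of the root marker sum overlapped, at 1435 to 2527 in these high-zinc roots and 1410 to 2169 in their controls, and PYK10, the beta-glucosidase gene, made up most of it. Of the root hair expansin genes, EXPA18 gave 159 to 199 at high zinc and 76.9 to 134 in controls, with no overlap (log2 difference 0.76, adjusted p = 0.527 by limma). EXPA7 gave 83.0 to 179 at high zinc and 40.8 to 85.3 in controls, with overlap (0.88, adjusted p = 0.602). Their part in the WRKY42 difference was not tested.

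In roots of the accumulating bulk the same comparison gave smaller values. WRKY42 averaged 46.7 ± 22.2 at high zinc and 30.3 ± 7.89 in controls (SD, n = 3 each), and the arrays overlapped. The log2 difference was 0.38 (95% interval -0.26 to 1.02), with an adjusted p of 1.00 by limma's test, where again 0% of probe sets passed and 361 had an unadjusted p below 0.05. Averaged over both bulks, the difference in WRKY42 was 1.06 (95% interval 0.61 to 1.51; adjusted p = 0.457). None of the 12489 passed (0%), with 854 at an unadjusted p below 0.05. The response in the accumulating bulk minus that in the non-accumulating bulk was -1.35 (95% interval -2.26 to -0.45). This interaction missed the threshold as well (adjusted p = 0.998), as did every probe set tested (0%; 470 at an unadjusted p below 0.05). A difference between the bulks in the zinc response of WRKY42 was therefore not called. With any 1 root array left out, the halleri array among them, the averaged difference was 0.95 to 1.22 and the interaction -1.57 to -1.02.

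WRKY6 was not tested in roots. Its mean signal was 50.9 ± 22.6 in high-zinc and 25.5 ± 14.2 in control roots of the non-accumulating bulk (SD, n = 3 each), and the log2 difference was 0.70 (95% interval -0.05 to 1.46). Without the halleri array this was 0.38. In the accumulating bulk the mean was 35.9 ± 9.74 at high zinc and 50.1 ± 7.58 in controls (SD, n = 3 each), a log2 difference of -0.36 (95% interval -1.12 to 0.40). The estimates for the 2 bulks had opposite signs, both intervals held 0, and the value averaged over them was 0.17 (95% interval -0.36 to 0.71). Without the halleri array it was 0.01. The accumulating response minus the non-accumulating one was -1.07 (95% interval -2.14 to 0.01), and it was -0.74 without the halleri array.

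In leaves, the WRKY42 estimates had the opposite sign and were not tested, because the probe set lay below the filter. In the accumulating bulk it averaged 10.3 ± 2.24 at high zinc and 49.7 ± 34.3 in controls (SD, n = 3 each), with controls over high zinc at a ratio of 4.82. All 3 high-zinc arrays lay below all 3 controls, which held for 3.93% of the 22746 probe sets. The log2 difference was -1.19 (95% interval -2.35 to -0.02), and without the leaf arrays numbered 3 it was -1.52. In that fit the probe set passed the filter through the control leaves of this comparison alone, so no p is given. In the non-accumulating bulk WRKY42 averaged 19.9 ± 16.8 at high zinc and 27.6 ± 18.1 in controls (SD, n = 3 each). That log2 difference was -0.28 (95% interval -1.45 to 0.88), and it was 0.12 without the arrays numbered 3. Over both bulks the difference was -0.74 (95% interval -1.56 to 0.09), and the interaction of bulk and zinc was -0.90 (95% interval -2.55 to 0.74).

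WRKY6 did not pass any zinc comparison in leaves. It averaged 81.0 ± 13.4 at high zinc and 67.1 ± 24.1 in controls in the accumulating bulk (SD, n = 3 each). The log2 difference was 0.25 (95% interval -0.40 to 0.90; adjusted p = 0.965 by limma), in a comparison where 0% of 12688 probe sets passed and 731 had an unadjusted p below 0.05. In the non-accumulating bulk it averaged 45.7 ± 17.6 at high zinc and 36.2 ± 16.9 in controls (SD, n = 3 each). This difference was also 0.25 (95% interval -0.40 to 0.89, adjusted p = 0.965 by limma), and 1 probe set, or 0.00788%, passed. Without the leaf arrays numbered 3 the log2 differences of WRKY6 were unlike, at 0.03 in the accumulating and 0.35 in the non-accumulating bulk. Over both bulks WRKY6 differed by 0.25 (95% interval -0.21 to 0.71; adjusted p = 0.768), where 4 probe sets, or 0.0315%, passed. The interaction of bulk and zinc was 0.01 (95% interval -0.91 to 0.92; adjusted p = 1.00), with 0% of probe sets passing and 197 at an unadjusted p below 0.05.

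The zinc response of the organs was then compared in 1 fit of all 24 arrays. For WRKY42 the response in roots minus that in leaves was 1.79 (95% interval 0.98 to 2.61). WRKY42 was kept in this fit through the high-zinc roots of the non-accumulating bulk alone, a group that raises this difference. The adjusted p of limma's test was 0.265 over 14403 probe sets, of which 1 passed, or 0.00694%, and 0.274 with no filter. It did pass when the leaf arrays numbered 3 were left out (1.76, adjusted p = 0.0129) and with arrays weighted by quality (2.13, adjusted p = 0.000991). Both fits kept it only through groups that raise this difference. These were the high-zinc roots of the non-accumulating bulk and, without those leaf arrays, also the control leaves of the accumulating bulk. Both p-values are conditional on those groups being high. The share of probe sets that passed was 4.2% and 7.94% in those fits, so the count for the whole table was also higher under both settings. Both fits were repeated with no filter. This was chosen after the data were seen, and only for settings in which WRKY42 had passed, so it adds no independent support. WRKY42 passed there too, without the leaf arrays numbered 3 (adjusted p = 0.0221, where 2.28% of 22746 probe sets passed) and with array weights (2.02, adjusted p = 0.0125, where 0.58% passed). It did not pass in the fit of all 24 arrays with equal weights, with or without the filter. With any 1 array left out, the halleri array among them, the WRKY42 difference between the organs was 1.60 to 1.99. For WRKY6 the difference between the organs was -0.08 (95% interval -0.72 to 0.57; adjusted p = 0.985).

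**Figure D2:**
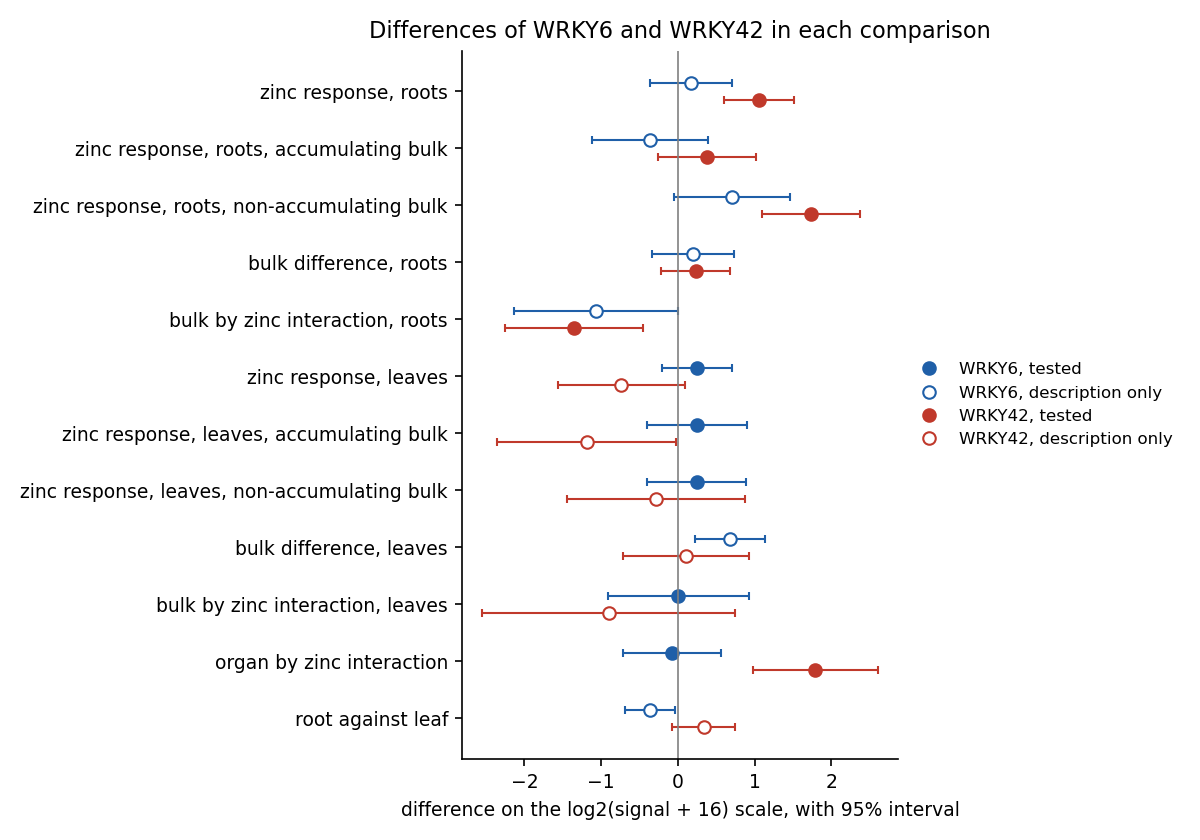
Log2 differences of WRKY6 and WRKY42 on the log2(signal + 16) scale in each comparison, with 95% intervals; positive values are higher at high zinc, in the accumulating bulk or in roots, and open points mark differences given as descriptions. The WRKY42 interval for zinc in non-accumulating roots was 1.10 to 2.37, with an adjusted p of 0.209, and the WRKY6 intervals held 0 in every comparison of high zinc with control. Intervals are not adjusted for the number of probe sets.

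The next comparison sets the accumulating bulk against the non-accumulating bulk. In control roots both genes were higher in the accumulating bulk on all arrays. WRKY6 averaged 50.1 ± 7.58 in the accumulating and 25.5 ± 14.2 in the non-accumulating bulk (SD, n = 3 each), a ratio of 1.96 and a log2 difference of 0.73. WRKY42 averaged 30.3 ± 7.89 in the accumulating and 8.54 ± 2.84 in the non-accumulating bulk (SD, n = 3 each), a ratio of 3.55 and a log2 difference of 0.91. A separation in this direction was found for 3.84% of all probe sets. Without the halleri array the ratios were 1.49 for WRKY6 and 3.89 for WRKY42, and the bulks still did not overlap.

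At high zinc the order of the bulks in roots was the opposite, with overlap. The accumulating minus non-accumulating log2 difference there was -0.33 for WRKY6 and -0.44 for WRKY42. Averaged over both media, WRKY42 differed between the bulks by 0.23 (95% interval -0.22 to 0.68, adjusted p = 0.852 by limma), where 0% of probe sets passed and 862 had an unadjusted p below 0.05. With any 1 root array left out, the halleri array among them, this WRKY42 difference was 0.12 to 0.40. The WRKY6 value, not tested, was 0.20 (95% interval -0.34 to 0.73), and it was 0.04 without the halleri array.

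In leaves, WRKY6 was higher in the accumulating bulk in both media; this is one of the patterns known when the gene was chosen. At high zinc the ratio of the means was 1.77 and the log2 difference 0.68, and the bulks did not overlap, as for 4.02% of all probe sets. In control leaves the ratio was 1.85 and the log2 difference 0.68, with overlap between the bulks. Leaf arrays with the same replicate number were also set side by side, since their deviations correlated between the bulks, though not only within a medium. Within each of the 3 control pairs WRKY6 was higher in the accumulating bulk. At high zinc the same order in every pair follows from the lack of overlap given above, so it adds nothing. The share of all probe sets with this order in every pair was not counted. The closest pair was replicate 1 of the controls, at 57.3 in the accumulating and 55.7 in the non-accumulating bulk. The difference over both media was 0.68 (SE 0.21, 95% interval 0.22 to 1.14), like the pairs a description of values in view when the gene was chosen. WRKY6 was kept in the leaf fit only through leaves of the accumulating bulk, the higher side here, so this interval is no test. No probe set in the table passed this comparison (0%; 546 at an unadjusted p below 0.05). Without the leaf arrays numbered 3 the WRKY6 difference was 0.55. WRKY42 differed between the bulks in leaves by 0.10 (95% interval -0.72 to 0.92), with -0.35 at high zinc and 0.55 in controls, and overlapped in both media.

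Roots and leaves differed throughout the table, with 67.9% of 14403 probe sets past the threshold, and the members are described against that background. WRKY6 was lower in roots than in leaves by a log2 difference of -0.36 (95% interval -0.69 to -0.04), a contrast in view when the gene was chosen. WRKY6 was kept in the fit of all 24 arrays only through leaves of the accumulating bulk, which lower this difference, so its interval is no test. With any 1 array left out, the halleri array among them, the difference was -0.43 to -0.28. Root signals of WRKY6 were below the leaves on every array only at high zinc in the accumulating bulk, at means of 35.9 in roots and 81.0 in leaves. The same held for 16.4% of all probe sets. WRKY42 differed between roots and leaves by 0.34 (95% interval -0.07 to 0.74), with different orders in the 2 media; the test of that difference is the organ by zinc interaction above, which did not pass with all arrays weighted equally. At high zinc its roots lay above leaves on all arrays, with ratios of 4.53 in the accumulating and 3.28 in the non-accumulating bulk, as for 21.5% and 22.4% of all probe sets. In controls the organs overlapped, and the log2 differences of root minus leaf were -0.38 in the accumulating and -0.74 in the non-accumulating bulk. Without the halleri array the latter was -0.78, and the WRKY42 difference over both media was 0.24 to 0.43 with any 1 array left out. For WRKY6 in controls of the non-accumulating bulk, root minus leaf was -0.35, and -0.03 without the halleri array. Over the 12 comparisons of 3 arrays against 3, WRKY42 lay wholly above in 4 and below in 1, and WRKY6 above in 2 and below in 1. The share of all probe sets that separated in the same direction was 3.84% to 22.4% in these cases. The comparisons share groups, and how many probe sets reach such counts over all 12 was not computed.

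Whether the genes moved together was examined over the 12 arrays of each organ. In roots, Pearson's r between their log2 values was 0.50 (permutation p = 0.0934, adjusted p = 0.187 over the 2 organs) and Spearman's rho 0.43 (permutation p = 0.160, adjusted p = 0.320). Without the 2 arrays farthest from the median of WRKY6, r was 0.24. In leaves, r was 0.24 (permutation p = 0.450, adjusted p = 0.450) and rho 0.22 (permutation p = 0.497, adjusted p = 0.497), and r was 0.22 without the 2 farthest arrays. Neither organ showed a relation past the threshold. Within groups, as deviations from the group means, r was 0.08 in roots and 0.67 in leaves, with an exact permutation p of 0.0918 in leaves over the 1296 arrangements within groups (adjusted p = 0.184).

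The other genes of the phosphate pathway and the WRKY family came from lists of 75 genes, of which the probe table named 16 by a single symbol. They included 1 of 14 phosphate transport genes, 2 of 16 phosphate signalling genes, 0 of 15 phosphate starvation genes, 1 of 6 other group IIb WRKY factors, 2 of 12 genes of senescence and defence, and 0 of 2 boron transport genes; the rest were the organ markers and clock and stress genes. No phosphate, WRKY, senescence or defence gene named there passed a zinc, bulk or interaction comparison in limma's test. The vacuolar phosphate transporter gene AT1G63010 gave mean signals of 670 in high-zinc and 726 in control roots of the accumulating bulk, and of 640 in high-zinc and 706 in control roots of the non-accumulating bulk. Its leaf means lay between 304 and 318. It was higher in roots than in leaves (log2 difference 1.09, SE 0.13, adjusted p = 1.98e-07 by limma), as was SAG29, a sugar transporter gene of senescing leaves (0.83, SE 0.16, adjusted p = 0.000151). In this comparison 67.9% of all probe sets passed, and SAG29 was kept in the fit through a root group, the high-zinc roots of the accumulating bulk, alone. SIZ1, a SUMO ligase of phosphate signalling, was on 2 probe sets and passed no comparison, and the root oxidase gene LPR1 was below the filter in both organs.

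Among the other 4 WRKY factors named in the table, none passed for zinc. WRKY22, a factor of defence signalling in A. thaliana, averaged 178 ± 16.2 at high zinc and 92.5 ± 20.3 in controls in roots of the non-accumulating bulk (SD, n = 3 each). That log2 difference was 0.85 (SE 0.19, adjusted p = 0.366 by limma), and in the accumulating bulk it was 0.01. WRKY47, the group IIb relative of the pair, averaged 86.2 ± 16.9 at high zinc and 120 ± 14.5 in controls in roots of the non-accumulating bulk (SD, n = 3 each), a log2 difference of -0.42 (SE 0.18, adjusted p = 0.596 by limma). WRKY20 differed by 0.12 there and WRKY53, a senescence factor below the filter, by -0.11. None of these 4 reached the difference of 1.73 of WRKY42 in the same roots; the differences between the genes were not tested.

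**Figure D3:**
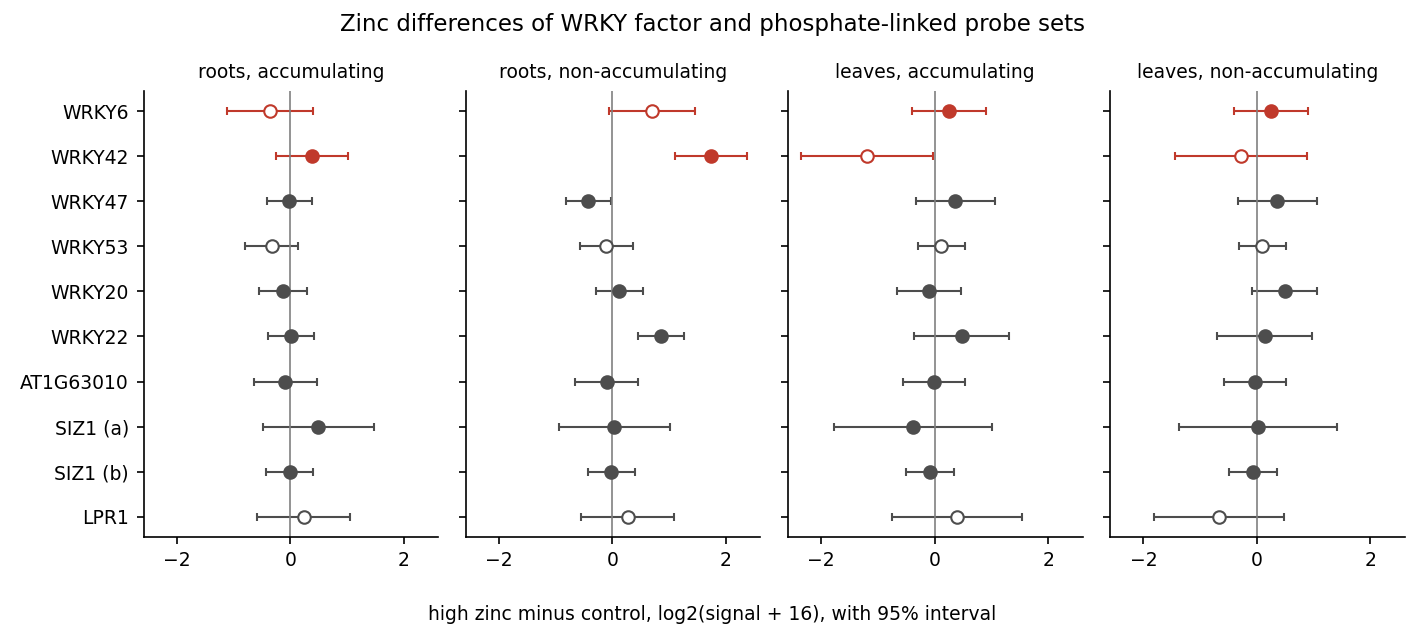
Zinc response, as the log2 difference of high zinc minus control on the log2(signal + 16) scale with its 95% interval, of WRKY42, WRKY6 and the other WRKY and phosphate genes named in the probe table, in the roots and leaves of each bulk; open points lie below the filter, and SIZ1 (a) and (b) are its 2 probe sets. WRKY42 in roots of the non-accumulating bulk had the highest value, 1.73, and WRKY22 followed with 0.85.

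The genes whose pattern was most like each member were taken from 7868 probe sets with a single symbol, by Pearson's r over 24 arrays after the mean of each organ was subtracted. For WRKY6 they were AT3G28950 (r = 0.73), the chitinase gene ChiC (0.73), AT3G62260 (0.68), AT3G27400 (0.67) and TBL37 (0.66). Within organs, ChiC followed WRKY6 at 0.62 in roots and 0.83 in leaves, and AT3G28950 at 0.86 in roots and 0.60 in leaves. For WRKY42 they were AT4G13180, AT5G40190 and AT4G17790 (0.66 each), LigB (0.65) and AT5G42000 (0.63), with values of 0.65 to 0.73 in roots and 0.54 to 0.68 in leaves. These values share arrays, groups and the scaling of each array, and being the highest of many they are descriptions only.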

How the data were processed

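The deposited values were linear MAS5 signals, an intensity per probe set, per the submitters' processing notes; the software version was not given in the sources used here, and no detection calls were used. The mean of each array, with 2% of probe sets trimmed at each end, was 100.0, so the intensities were used as the authors scaled them. Precision is limited by the number of arrays, 3 per group, since intensities carry no depth.

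Signals were taken to log2(signal + 16) and tested with limma 3.58.1 in R 4.3.3 fitting 1 mean for each group, with trended empirical Bayes moderation; p-values were adjusted by Benjamini-Hochberg over all probe sets kept, with a threshold of 0.05. Roots and leaves were fitted separately (12 arrays each), and all 24 arrays together for comparisons of organs. Probe sets entered a fit when at least 1 group mean on the log2 scale exceeded the median of all values in it, which left 12489, 12688 and 14403 of 22746. A difference below this filter has an interval from its own spread, without moderation. Signs are high zinc minus control, accumulating minus non-accumulating, and root minus leaf. The fits of each organ were tested on simulated data, for the zinc comparison over both bulks. Changes were placed only in probe sets whose mean lay above the median, so recovery at lower signals was not tested.

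The members, gene lists and tests were chosen with earlier results of these data known; WRKY20 and WRKY22 were added after the probe table was seen. Which earlier values of WRKY42 were in view is not recorded, so its p-values are given to say what passed and not as independent support. Named genes were the members, up to 4 listed genes past the threshold per comparison, the group IIb WRKY factors, and the 5 most alike genes. A listed phosphatase symbol, PS2, was left out because the probe table ties it to another gene. Replicate numbers in the labels were checked as pairs. The correlation of deviations from group means was -0.02 to 0.72 in leaves and -0.18 to 0.40 in roots. It exceeded 0.1 in every pair only in leaves, between the bulks. This held within each medium, and also between control leaves of the non-accumulating and high-zinc leaves of the accumulating bulk (0.13, 0.43 and 0.30).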

Additional observations from a re-analysis of the deposited data

Results flagged for a closer look

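WRKY42 signals differed with zinc in opposite directions in the roots of the non-accumulating bulk and the leaves of the accumulating bulk. Every high-zinc array lay above every control in those roots (log2 difference 1.73), as for 4.78% of 22746 probe sets. Every high-zinc array lay below every control in those leaves (-1.19), as for 3.93%. The values differ by 2.92 on the log2(signal + 16) scale, and were picked because 1 comparison separated upward and the other downward. This difference between one bulk's roots and the other's leaves was not tested. WRKY42 lay below the filter in leaves, and the leaf controls spread from 18.8 to 86.7.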

How the results depend on the processing

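Of 605 recomputed values, 580 kept their sign and their side of the threshold or moved by less than 1 SD. A tested value counted as kept whatever its size, and no tested result had passed to begin with, so this count says little about size. The settings changed the pseudocount, filter, scaling, weights or variance trend, added a replicate block, fitted both organs together, or left out 1 array at a time. WRKY42 passed for the difference between organs in the zinc response with array weights (2.13, and 2.02 with no filter) and without the leaf arrays numbered 3 (1.76 with and without the filter), and the cause was not tested. With the filter it was kept there only through groups that raise this difference, and the repeats with no filter were chosen after it had passed. Tested and untested values both moved with the pseudocount. With a pseudocount of 1 and of 64, the zinc difference of WRKY42 was 2.84 and 0.83 in non-accumulating roots and 1.68 and 0.52 over both bulks' roots, and its difference between organs was 2.90 and 0.87; none of these changed a call. The interaction of bulk and zinc for WRKY6 in roots was -1.58 with a pseudocount of 1 and -0.55 with 64, and the zinc difference of WRKY42 in accumulating leaves was -1.93 with 1. Without the leaf arrays numbered 3, the interaction of bulk and zinc for WRKY42 in leaves was -1.65. Differences near 0 changed sign. For WRKY6 in leaves that interaction was -0.0322 with a pseudocount of 1, -0.0762 with quantile normalization, -0.0861 with median centring and -0.33 without the arrays numbered 3, and -0.25 to 0.23 with 1 array left out. For WRKY6 the difference between organs in the zinc response was 0.11 with array weights, 0.0380 with array weights and no filter, and -0.240 to 0.0248 with 1 array left out. With 1 array left out, the zinc difference of WRKY42 in non-accumulating roots was 1.63 to 1.80 (adjusted p = 0.0786 to 0.681 by limma). Over the whole table the count of probe sets past the threshold for zinc in leaves, 4 as reported, was 2427 with array weights, 1219 without the leaf arrays numbered 3, 111 in 1 fit of both organs and 61 with the replicate block; WRKY6 passed in none of these.

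Replicate number as a block changed no call of WRKY6 or WRKY42. WRKY42 then had an adjusted p of 0.0915 by limma for zinc in non-accumulating roots and 0.144 over both bulks. The correlation of WRKY6 and WRKY42 as deviations within root groups was -0.38 with the replicate block. That is opposite in sign to 0.08 without the block and to 0.50 for the log2 values themselves. In leaves the correlation with the block was 0.65.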
